A study of Mus musculus with 7 samples.

Results

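Immature neutrophils from healthy mouse spleen were compared with those from bone marrow. Neutrophils were taken as cells in which S100a8 and S100a9 together held at least 3% of the unique molecular identifiers (UMIs, each a captured transcript) and in which Cd79a, Cd79b, Cd3e and Nkg7 summed to fewer than 3 UMIs. Immature cells were those neutrophils in which Camp and Ngp held at least 3% of UMIs and in which the cycling genes Top2a, Mki67, Nusap1, Birc5, Cdk1 and Hmmr summed to fewer than 3 UMIs. This rule chose 2240 of the 7668 neutrophils and of the 10666 cells in the 4 libraries of both tissues, with 1736 immature cells from bone marrow and 504 from spleen.

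Each tissue was captured once in each of 2 runs by droplet-based single-cell RNA-seq, which reads the 3' ends of transcripts. The cells were CD11b+ Ly6G+ cells negative for propidium iodide, sorted from healthy male C57BL/6J mice. Each library held cells pooled from 3 mice, and both tissues of each run were taken from 1 set of mice. Mice were 6 weeks old in run 1 and 8 weeks old in run 2, so age and run cannot be told apart, and a pool (n = 2 per tissue) was the replicate.

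Neutrophils mature in the bone marrow, where they fill their granules in sequence. Transcripts of secondary granule proteins such as lactoferrin (Ltf), cathelicidin (Camp) and Ngp follow those of primary granule proteins. They are followed by those of gelatinase granule proteins such as Mmp9 and, in mature cells, by cytokine and receptor transcripts. The spleen holds neutrophils that arrive with the blood and can also host granulopoiesis.

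Immature cells were present in both spleens, but the spleen of run 2 held few. They made up 50.7% of neutrophils from bone marrow and 40.4% of those from spleen in run 1 (605 of 1194 and 458 of 1133 cells; exact 95% intervals 47.8 to 53.5% and 37.6 to 43.3%). The bone marrow of run 2 gave 33.4% and its spleen 2.35% (1131 of 3386 and 46 of 1955 cells; 31.8 to 35.02% and 1.73 to 3.13%). The spleen share was thus lower by 10.2 percentage points in run 1 and by 31.0 in run 2, a description with no test because the rule sets it. These intervals cover counting error only. In the spleen of run 2 neutrophils were 44.9% of all captured cells, against 88.6% to 93.9% in the other libraries. The summed immature cells held 2406616 UMIs (bone marrow, run 1), 1813615 (spleen, run 1), 3734946 (bone marrow, run 2) and 137140 (spleen, run 2). Levels are given as CPM, counts per 1e6 UMIs of the genes listed in all 4 tables, which held 2399677, 1813151, 3711177 and 136052 of these UMIs in the same order. On that scale a single UMI stood for 7.35 CPM in the spleen of run 2 and for 0.269 to 0.552 CPM elsewhere.

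The chosen cells carried the other markers of immature neutrophils. Ltf, which was not part of the rule, stood at 8708 to 10452 CPM in immature cells of the 4 libraries, against 24.0 to 287 CPM in mature neutrophils and 20.8 to 1468 CPM in the cells outside the neutrophil rule. The median immature cell had 3574 and 3832 UMIs in bone marrow and spleen of run 1, and 3120 and 2753 in run 2. Spleen cells therefore had 1.07 times the UMIs of bone marrow cells in run 1 and 0.882 times in run 2. The median cell took 9.63% (bone marrow) and 11.3% (spleen) of its UMIs from Camp and Ngp in run 1, and 7.25% and 7.82% in run 2. At the edge of the rule, 47, 17, 171 and 7 cells held 3 to 4% and 58, 21, 211 and 1 cells held 2 to 3% (bone marrow and spleen of run 1, then of run 2). Between the libraries of bone marrow and spleen, 27 cell barcodes were shared in run 2 and 0 in run 1, and 7 of the shared ones were immature cells of bone marrow and 0 of spleen.

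**Figure D1:**
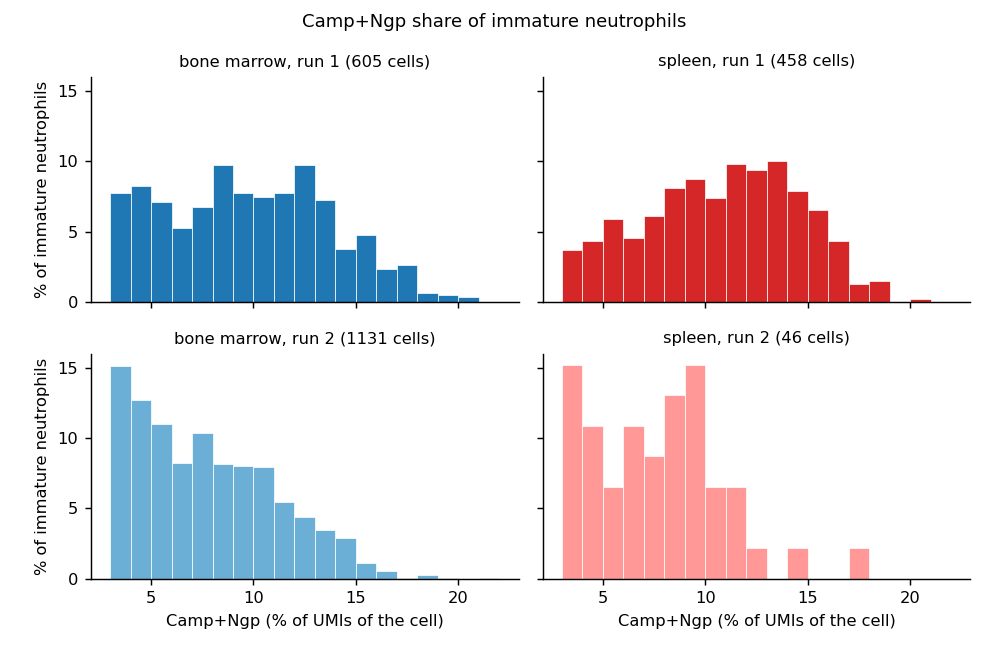
Share of immature neutrophils (y axis, %) by the percentage of their UMIs that came from Camp and Ngp (x axis, steps of 1 percentage point from the minimum of 3), in 1 panel per library. Medians lie at 9.63% (bone marrow) and 11.3% (spleen) for run 1 and at 7.25% and 7.82% for run 2, and the panel of the spleen of run 2 rests on 46 cells.

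Few genes differed between the tissues in immature neutrophils. In 1 edgeR quasi-likelihood fit over all genes with the run as a block, 15 of 5927 genes were higher in spleen (0.253%) and 7 were lower (0.118%) at an FDR of 0.05. The higher genes were the interferon-stimulated genes Isg15, Ifit1, Ifit3 and Bst2, the class I gene H2-K1, the class II invariant chain Cd74, the cytokine gene Il1b, Srgn, Upp1, BC100530, Ldhc, Rps27rt, Rpl38, Gm7676 and Gm26917. The lower genes were the globin genes Hbb-bs, Hbb-bt, Hba-a1 and Hba-a2, the stefin genes Stfa1 and Gm5483, and Apoe. For 19 of the 22 genes the sign was the same in both runs, and the exceptions were Cd74, Ldhc and Apoe. The run itself, tested in the same fit, changed 328 genes. The calls depended on the block: with all 4 libraries and no block, and in each fit that left out 1 library and had no block either, 0 genes were called higher and 0 lower, while 81 and 23 to 349 genes had an unadjusted p under 0.05. DESeq2 with the run in its design called 1 gene higher, BC100530, and 1 lower, Hbb-bs, and cells matched on both Camp and Ngp share and UMIs gave 0 calls in edgeR, with 126 genes at an unadjusted p under 0.05. All 22 genes kept their direction under DESeq2, without the block with all libraries, and in the matched cells, where matching left 46 of 1131 cells in the bone marrow of run 2.

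For most well-expressed genes the data bounded the difference between the tissues. Of 1386 genes with a mean of at least 50 CPM, 1346 (97.1%) had a 95% interval of the difference that lay within 2-fold in either direction. These intervals rest on a spread shared over all genes, since each gene has 1 residual degree of freedom. The median absolute difference of these genes was 0.12 on the log2 scale in immature neutrophils.

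In mature neutrophils of the same 4 libraries, taken as non-cycling neutrophils with Camp and Ngp under 1% of UMIs (367, 608, 1563 and 1887 cells), the same fit called 496 of 5031 genes higher (9.86%) and 543 lower (10.8%) in spleen. Over the 1375 of the 1386 genes that were fitted in both, the median absolute difference was 0.37 in mature cells and 0.12 in immature cells on the log2 scale. The difference between the stages was tested itself, as the interaction of tissue and stage with the library as a block. The spleen minus bone marrow difference was more positive in immature cells for 222 of 6338 genes (3.5%) and more negative for 165 (2.6%), together 6.11%. Of the first, 199 of the 213 that were fitted in mature cells were lower in mature spleen neutrophils, and of the second, 138 of 163 were higher there. Only 7 of these 387 genes were called between the tissues in immature cells, against 340 in mature cells. Mature sums were deeper than immature ones in the spleen of run 2 (1587626 against 137140 UMIs).

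**Figure D2:**
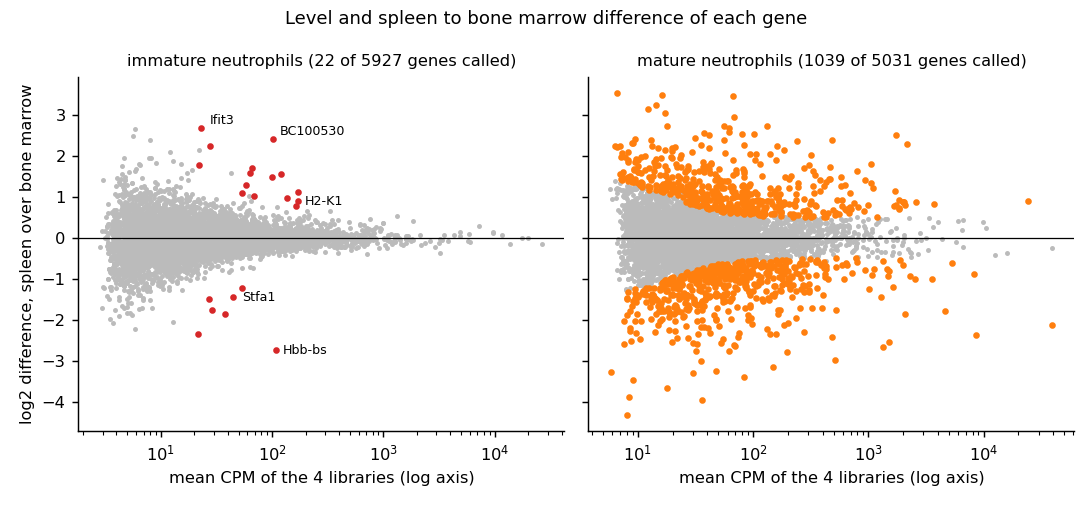
Mean CPM of the 4 libraries (x axis, log scale) and log2 difference of spleen over bone marrow (y axis) for each gene tested, in immature (left) and mature (right) neutrophils, with genes called at an FDR of 0.05 in colour and all others in grey. Of 5927 genes, 22 were called in immature cells, against 1039 of 5031 in mature cells.

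None of the 14 secondary granule genes passed the test in immature cells, where 0.371% of all genes did, and their median difference was 0.04 (log2), against -0.01 over all genes tested. The ratio was positive for 12 of the 14 in run 1 and for 2 in run 2. Ltf stood at 8708 and 9820 CPM in bone marrow and spleen of run 1 and at 9740 and 10452 CPM in run 2. Its difference was 0.11 on the log2 scale with a 95% interval from -0.31 to 0.53. Chil3, a chitinase-like protein of the same stage, stood at 3510, 3855, 3251 and 2830 CPM in the same order, a difference of -0.05 (-0.42 to 0.33). Lcn2, which binds bacterial siderophores, differed by 0.13 (-0.29 to 0.56). None of these intervals reached 2-fold. The genes of the rule itself, Camp and Ngp, had differences of -0.09 and 0.12, given as a description.

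Of the gelatinase granule and metalloproteinase genes, 0 of 10 were called, with a median of 0.02 (log2). The collagenase gene Mmp8 stood at 2094 and 1791 CPM in run 1 and at 2779 and 2822 CPM in run 2 (bone marrow, then spleen), and its interval ran from -0.49 to 0.22. Primary granule genes, made earlier still, had 0 of 6 called, with differences from -1.18 to 0.42 and a median of -0.083 (0.053 in run 1, -0.50 in run 2), and Serpinb1a, an inhibitor of neutrophil elastase, differed by 0.21 (-0.12 to 0.54). In mature cells 11 of 13 secondary granule genes and 8 of 10 gelatinase genes were lower in spleen, against 10.8% of all genes, with list medians of -2.07 and -1.35. The interaction was called for 11 of 14 and for 6 of 10 genes of these lists, against 3.5% of all genes in this direction, all more positive in immature cells. In mature cells Ltf stood at 215 and 210 CPM in run 1 and at 287 and 24.0 CPM in run 2 (bone marrow, then spleen), so its difference there came mostly from run 2, while Mmp8 was lower in spleen in both runs, at 780 against 2317 CPM and at 414 against 2524 CPM. The coefficient was 2.06 ± 0.21 (SE) for Ltf, 2.30 ± 0.19 for Mmp8 and 2.39 ± 0.20 for Ly6g, which encodes the sorted surface antigen. Mature cells were chosen by low Camp and Ngp, and their median share in these cells was 0.323% (bone marrow) and 0.232% (spleen) for run 1 and 0.320% and 0% for run 2, so that the makeup of the mature class moves with this result. Its part in it was not tested.

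Levels were also taken along the range of immaturity, as a description. In cells with 3 to 5% of UMIs from Camp and Ngp, Ltf stood at 3804 and 4034 CPM in bone marrow and spleen of run 1 and at 4912 and 5580 CPM in run 2. In cells with 12% or more it reached 11308 and 11621 CPM in run 1 and 14015 and 13246 CPM in run 2. Retnlg, a resistin-like gene of late immature and mature cells, went the other way, from 39366 and 51460 CPM to 4051 and 5025 CPM in run 1 and from 40125 and 41113 CPM to 4583 and 3218 CPM in run 2. In run 1 Retnlg was higher in spleen in all 4 intervals, whereas in run 2 it was lower in 2 of them. The interval of 12% or more held 189 of 458 immature cells in spleen and 194 of 605 in bone marrow of run 1, and 3 of 46 and 147 of 1131 in run 2.

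**Figure D3:**
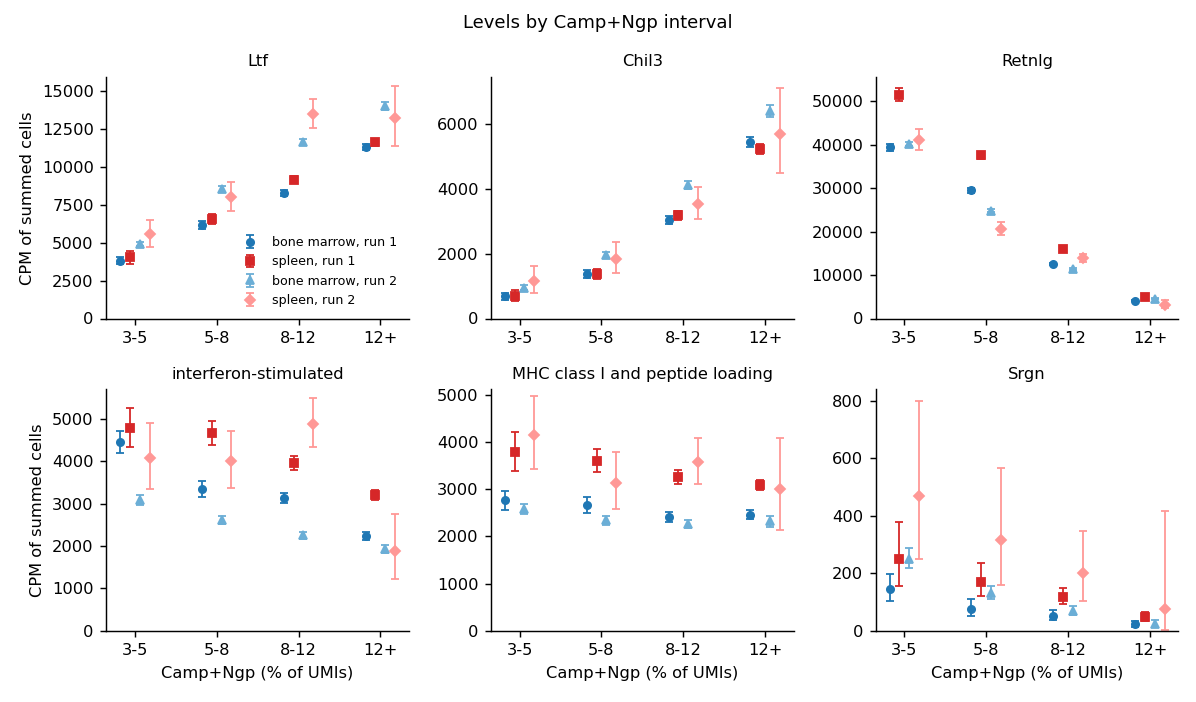
CPM of summed immature cells (y axes, from 0) in 4 intervals of the Camp and Ngp share of the cell (x axes, % of UMIs) for Ltf, Chil3, Retnlg, the interferon-stimulated list, the class I list and Srgn, with symbols for the 4 libraries and bars for the exact 95% Poisson interval of the count. Ltf and Chil3 climb and Retnlg falls with the share in all 4 libraries, and the class I list lies above the bone marrow of the same run in both spleens in all 4 intervals.

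Interferon-stimulated genes were the largest group among the genes called higher in spleen. Their products, made after cells sense interferon, block viral replication, and many of their promoters hold the interferon-stimulated response element, whose core is a pair of GAAA words with any 2 bases between them, on one strand or the other. Isg15, the ubiquitin-like modifier, stood at 51.7 and 107 CPM in bone marrow and spleen of run 1 and at 39.6 and 198 CPM in run 2. Both spleens were above both bone marrows, and the difference was 1.48 ± 0.22 (log2, SE; edgeR adjusted p = 3.26e-08). Ifit1 and Ifit3 bind or sense viral RNA. Ifit1 stood at 7.92, 22.6, 6.74 and 73.5 CPM in the same order, a difference of 2.22 ± 0.43 (edgeR adjusted p = 9.76e-05). Ifit3 stood at 6.25, 18.2, 2.16 and 66.2 CPM, a difference of 2.67 ± 0.54 (edgeR adjusted p = 0.000164). Bst2, the tetherin that holds budding virions at the cell surface, stood at 10.4, 27.0, 6.197 and 44.1 CPM and differed by 1.77 ± 0.41 (edgeR adjusted p = 0.00375). For each of these 4 genes the groups did not overlap. With 2 libraries per tissue this says little, and the share of all genes without overlap was not counted. The counts behind the spleen of run 2 were small, with 27, 10, 9 and 6 UMIs for Isg15, Ifit1, Ifit3 and Bst2.

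The stretches before the start sites of these 4 genes are shown because each holds the interferon element. Sequences are from RefSeq on GRCm38.p6, read 5' to 3' on the strand of the gene, with matches to that core, or to its reverse complement (TTTC, any 2 bases, TTTC), in capitals. They lie at chr4:156200835-156200936 (minus strand), chr19:34640745-34640853 (plus), chr19:34583333-34583456 (plus) and chr8:71537547-71537642 (minus), with the match nearest the start 66, 85, 122 and 124 bases before it.
Isg15: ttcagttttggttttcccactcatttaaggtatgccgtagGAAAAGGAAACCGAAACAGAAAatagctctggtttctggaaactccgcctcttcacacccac
Ifit1: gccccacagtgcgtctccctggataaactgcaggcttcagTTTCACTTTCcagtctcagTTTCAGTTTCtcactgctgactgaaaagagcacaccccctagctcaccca
Ifit3: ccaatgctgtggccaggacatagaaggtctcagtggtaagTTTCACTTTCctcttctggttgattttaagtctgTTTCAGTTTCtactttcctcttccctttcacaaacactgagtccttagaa
Bst2: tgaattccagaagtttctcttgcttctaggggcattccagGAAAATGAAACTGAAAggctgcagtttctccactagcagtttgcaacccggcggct
Of the 31 genes of the list that were tested, 23 had an entry among the RefSeq promoters, and 14 of them (60.9%) held the element within 250 bases before the start, against 978 of all 32851 promoters (2.98%). Overlapping matches were counted once per promoter. The list is made of interferon targets, so its share describes the list and not the difference between tissues.

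The rest of the list leaned the same way. All 31 genes tested had a positive difference, with a median of 0.74 (log2) against -0.01 over all genes tested, and 4 of the 31 were called, where 0.253% of all genes were. In cells cut at random to 500 UMIs each, 9 genes were tested, 6 were positive and the median was 0.28. The ratio was positive for 29 genes in run 1, the exceptions being Oas3 and Ifi204, and for 29 in run 2, the exceptions being Gbp7, with 0 UMIs in spleen, and Samd9l. The list median was 0.53 in run 1 and 1.19 in run 2. Members that missed the threshold included Rtp4, at 75.01 and 106 CPM in run 1 and 39.3 and 103 CPM in run 2 (0.74 ± 0.22; edgeR adjusted p = 0.168), and Ly6e, at 35.005 and 38.1 CPM in run 1 and 32.9 and 154 CPM in run 2 (0.90 ± 0.28; edgeR adjusted p = 0.254). Ifitm3, which blocks viral entry, stood at 1631 and 2167 CPM in run 1 and at 1507 and 2073 CPM in run 2, a difference of 0.41 with an interval from 0.07 to 0.76 (edgeR adjusted p = 0.999). Slfn4, a Schlafen gene, stood at 106, 117, 145 and 169 CPM (0.19, -0.19 to 0.57). The differences ran from 0.01 in Samd9l to 2.67 in Ifit3.

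The difference was spread over cells, but a few cells held much of it. Without Ifitm3, the summed list held 0.131% and 0.154% of UMIs in immature cells of bone marrow and spleen of run 1 and 0.0965% and 0.211% in run 2, and the median cell held 0.0975%, 0.116%, 0.0728% and 0.143%. At least 1% of UMIs came from these 34 genes in 5 of 605, 3 of 458, 0 of 1131 and 1 of 46 cells, and the single such cell of the spleen of run 2 carried 23.5% of its library's UMIs of the list. Leaving these cells out gave 0.123% (bone marrow) and 0.141% (spleen) for run 1 and 0.0965% and 0.166% for run 2, so the spleen stayed above the bone marrow in both runs. For single genes 1 cell could weigh more: 7 of the 9 Ifit3 UMIs in the spleen of run 2 came from 1 cell. When every gene was summed without its highest cell in each library, Isg15 was still called (1.25), and the list median was 0.49 over 29 genes. Ifit1, Ifit3 and Bst2 fell to differences of 1.79, 1.78 and 1.59 and were not called (edgeR adjusted p = 0.999). The alternative takes relatively more counts from the small spleen library.

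Within intervals of the Camp and Ngp share, the list stood higher in spleen in 7 of 8 pairs. In cells with 8 to 12% it held 3135 and 3962 CPM in bone marrow and spleen of run 1 and 2256 and 4889 CPM in run 2. The exception was the top interval of run 2, with 1927 CPM in bone marrow and 1871 CPM in the 3 spleen cells. Markers of other cell types were summed in immature cells, with class II and erythroid lists given with their own results. Markers of B cells held 0.00662% of UMIs in the spleen of run 2 and 0.00110 to 0.00143% elsewhere, of T and NK cells 0.00361 to 0.00535%, and of monocytes, macrophages and dendritic cells 0.00259 to 0.00703%. Only 3 of 16, 4 of 18 and 13 of 22 markers of these lists were listed for all 4 libraries. Outside the neutrophil rule in the spleen of run 2, those of B cells held 0.129% of UMIs and those of T and NK cells 0.172%. In cells with 0 UMIs of Cd79a, Cd79b, Cd3e and Nkg7 the interferon list had a median of 0.55, and 17 of the 22 called genes were called. All 5 that were lost had been called higher in spleen: Ifit3 (1.78), Bst2 (1.49), Gm26917 (1.22), Rpl38 (0.62) and Cd74 (0.15). The part of other cells in the result was not tested. The same interferon list held 0.570% and 0.817% of UMIs in the remaining cells of run 1 and 0.437% and 0.431% in those of run 2 (bone marrow, then spleen). In mature neutrophils 16 of 34 genes of the list were higher and 1 was lower in spleen (median 0.61), where 9.86% and 10.8% of all genes were. The interaction was called more positive for Bst2 (1.93 ± 0.52) and Ifitm3 (0.70 ± 0.19) among the 35 tested, a share close to the 3.5% over all genes.

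**Figure D4:**
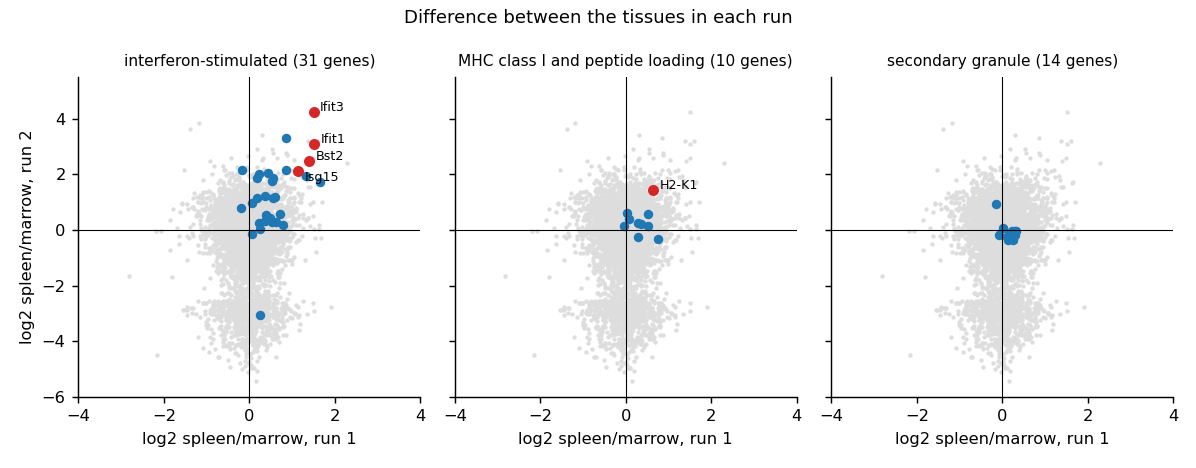
Log2 ratio of spleen over bone marrow in run 1 (x axis) and run 2 (y axis), with a prior count of 2, for the interferon-stimulated, class I and secondary granule lists (coloured points, red where called) over all genes tested (grey). Of the interferon-stimulated genes 27 of 31 lie in the upper right quadrant, while the 14 secondary granule genes lie close to 0 on both axes.

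Of 10 class I antigen presentation genes, 1 was called higher in spleen, where 0.253% of all genes were. H2-K1, a classical class I heavy chain, stood at 123 and 178 CPM in bone marrow and spleen of run 1 and at 93.8 and 287 CPM in run 2. Its difference was 0.91 ± 0.19 (log2, SE; edgeR adjusted p = 0.000689). B2m, the light chain, stood at 1200, 1595, 943 and 1573 CPM in the same order, and did not pass the test (0.54 ± 0.17; edgeR adjusted p = 0.285). H2-D1 stood at 772, 1028, 959 and 1183 CPM (0.35, 0.02 to 0.68). All 10 differences were positive in the fit, with a median of 0.32, and 7 of the 10 were positive in both runs. The summed list was also higher in spleen in mature neutrophils (0.509% and 0.993% of UMIs in bone marrow and spleen of run 1, 0.447% and 0.782% in run 2) and in the cells outside the neutrophil rule (0.605% and 1.25%, 0.651% and 0.830%), against 0.250%, 0.324%, 0.236% and 0.352% in immature cells. The part of those cells in the result was not tested. The peptide transporter genes Tap1 and Tap2 differed by 0.35 ± 0.34 and 0.00 ± 0.28, and the immunoproteasome gene Psmb8 by 0.16 ± 0.20. When cells were matched on their Camp and Ngp share, or every gene was summed without its highest cell, H2-K1 stayed called and B2m, H2-D1 and Ifitm3 were called as well. Of the 22 called genes 18 were called after the first of these changes, and Bst2 (1.48; edgeR adjusted p = 0.0665) and Gm5483 were among those lost. None of H2-K1, B2m, H2-D1 and Ifitm3 was called when cells were matched on UMIs too, with B2m at 0.48 and H2-K1 at 0.77.

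Class II transcripts stood high in 1 library. Cd74, the invariant chain, stood at 26.7 and 8.82 CPM in bone marrow and spleen of run 1 and at 29.1 and 419 CPM in run 2. It was called (1.55 ± 0.28; edgeR adjusted p = 7.04e-05), yet its sign differed between the runs, and in run 1 alone the log2 ratio was -1.39. In that library 35 of its 57 UMIs came from 1 cell, as did 50 of the 64 UMIs in bone marrow of run 1. Without the highest cell of each library Cd74 was not called (1.84; edgeR adjusted p = 0.0814). The 7 class II genes summed to 0.0823% of UMIs in immature cells of the spleen of run 2, against 0.00381 to 0.00579% in the other libraries, and to 3.03% in the remaining cells of that library. The part of those cells in the result was not tested.

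Il1b and Srgn were higher in spleen among genes of late maturation. Il1b, which encodes the precursor of interleukin-1β, stood at 12.9 and 38.6 CPM in bone marrow and spleen of run 1 and at 45.5 and 169 CPM in run 2. Each spleen exceeded the bone marrow of its own run, while the spleen of run 1 lay below the bone marrow of run 2. The difference was 1.70 ± 0.28 (edgeR adjusted p = 4.74e-06), from 31, 70, 169 and 23 UMIs in 15, 57, 106 and 11 cells. Mature neutrophils of the same libraries held 206, 2243, 674 and 3822 CPM, which moved the same way, and the part of free RNA from them was not tested. Srgn, the core protein of the proteoglycan serglycin that packs granule contents, stood at 54.2, 96.5, 119 and 272 CPM. It differed by 0.98 ± 0.20 (edgeR adjusted p = 0.0005), and was higher in spleen in all 4 intervals of the Camp and Ngp share in both runs. In all, 15 of the 19 late maturation genes had a positive difference, against 48.8% of all genes, with a median of 0.28. Il1b and Srgn were the only members called, where 0.253% of all genes were called higher. Csf3r, the receptor of the growth factor G-CSF, stood at 87.9, 73.4, 108 and 132 CPM (-0.07, -0.49 to 0.34), whereas in mature cells it was higher in spleen by 1.33. The interaction was called for Csf3r (-1.50 ± 0.24) and for Il1b (-1.10 ± 0.26), and for 6 of the 19 genes in all, each more negative in immature cells, against 2.6% of all genes in this direction. For Srgn it was not (-0.17 ± 0.22).

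Upp1, uridine phosphorylase of the pyrimidine salvage pathway, was higher in immature cells of spleen and not called in mature ones. It stood at 16.7 and 37.5 CPM in run 1 and at 37.5 and 162 CPM in run 2 (bone marrow, then spleen), a difference of 1.58 ± 0.29 (edgeR adjusted p = 5.56e-05). Each spleen exceeded the bone marrow of its own run, and the spleen of run 1 did not stand apart from the bone marrow of run 2. Its 40, 68, 139 and 22 UMIs came from 33, 51, 113 and 12 cells, with at most 4 in any of them. In mature cells the difference was -0.52 (edgeR adjusted p = 0.174), and the interaction was called (1.80 ± 0.39; edgeR adjusted p = 0.000154).

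The fit of ribosomal protein genes was positive for 65 of 82, against 48.8% of all genes, and the ratio was positive in both runs for 43 and negative in both for 9. Of the 82, 2 were called higher, Rps27rt and Rpl38, where 0.253% of all genes were, and the list median was 0.14. The same list held 10.3% and 15.5% of UMIs in the cells outside the neutrophil rule for bone marrow and spleen of run 1 and 21.5% and 32.4% for run 2, against 1.39% to 3.10% in immature cells, and the part of those cells in the result was not tested. Rps27rt, a retrotransposed copy of Rps27, stood at 39.6 and 85.5 CPM in run 1 and at 172 and 390 CPM in run 2 (1.12 ± 0.19; edgeR adjusted p = 1.11e-05). Rpl38 stood at 25.0, 63.4, 252 and 316 CPM (0.78 ± 0.20; edgeR adjusted p = 0.0393). Both genes differed more between runs than between tissues, and were higher in spleen within each run. Reads of Rps27rt may be shared with its parent gene. The processed pseudogene Gm7676 (1.10 ± 0.25) and the long noncoding gene Gm26917 (1.29 ± 0.33) were also called, and were higher in spleen within each run. For Gm7676 the spleen of run 2 held 2 UMIs, and for Gm26917 run 1 gave 30 and 27 UMIs (bone marrow, then spleen). Both turned direction in a fit without 1 library and without a block (-1.38 and -0.64). Without its highest cell in each library Gm26917 was not called (1.35; edgeR adjusted p = 0.279). Ldhc, a lactate dehydrogenase subunit known from testis, stood at 33.3, 91.0, 78.7 and 73.5 CPM, so its call (1.03 ± 0.22; edgeR adjusted p = 0.00236) came from run 1. All 9 mitochondrial transcripts had positive differences in the fit with a median of 0.22 and none was called, while 9 were positive in run 1 and 4 in run 2, and 78 nuclear genes of the respiratory chain had 0 called and a median of -0.06.

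**Figure D5:**
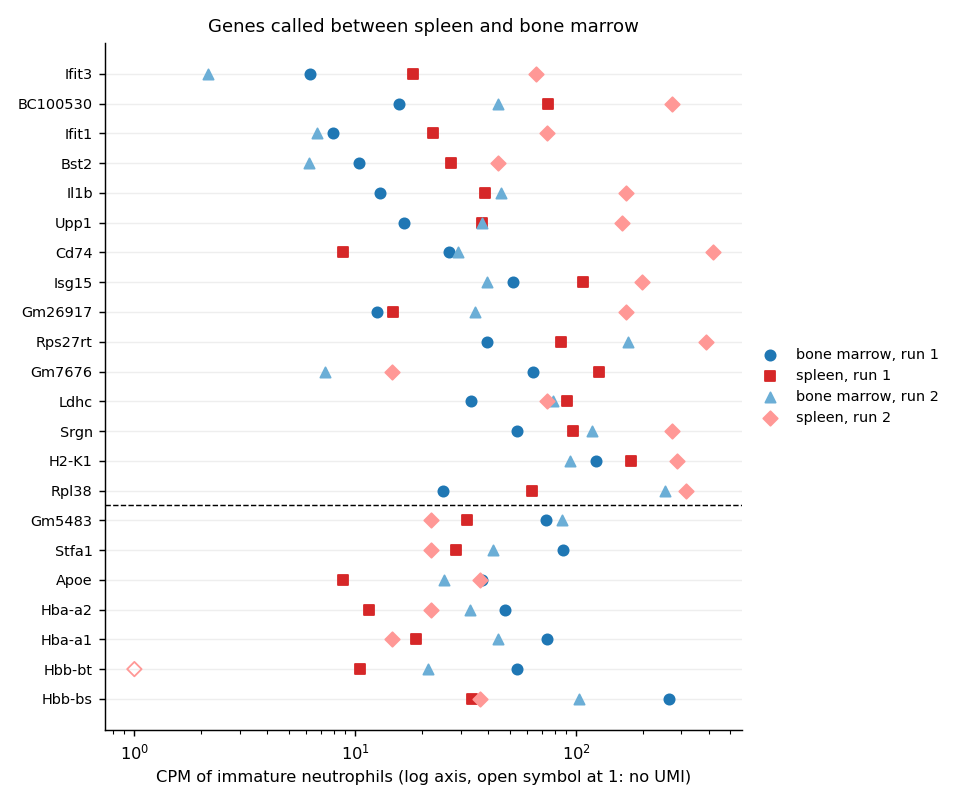
CPM of immature neutrophils (x axis, log scale) in each of the 4 libraries for the 22 genes called between spleen and bone marrow, ordered by their difference, with genes higher in spleen above the dashed line and an open symbol at 1 for a library with no UMI. Of the 22 genes, 19 have the same sign in both runs, and Cd74, Ldhc and Apoe do not.

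Stefin A genes gave calls in both directions, and that of BC100530 rested on a few cells. These cysteine protease inhibitors lie in a cluster on mouse chromosome 16 as near-identical copies, so counts of single members are uncertain. Summed, the stefin A genes stood at 285 and 261 CPM in run 1 and at 264 and 368 CPM in run 2 (bone marrow, then spleen). The sum was thus lower in spleen in run 1 and higher in run 2. The other stefin A genes tested were not called in immature cells, where 0.371% of all genes were. BC100530 (chr16:36359382-36367748 on GRCm38) stood at 15.8 and 75.01 CPM in run 1 and at 44.5 and 272 CPM in run 2, the strongest call among the higher genes (2.39 ± 0.24; edgeR adjusted p = 3.97e-19). In the spleen of run 1, 103 of its 136 UMIs came from 1 cell, and in the spleen of run 2 all 37 did. Summed without its highest cell in each library, the difference was 0.03 (edgeR adjusted p = 0.999). Stfa1 stood at 87.1, 28.7, 42.0 and 22.1 CPM (-1.44 ± 0.30; edgeR adjusted p = 0.000215). Gm5483 stood at 73.3, 31.99, 86.8 and 22.1 CPM (-1.23 ± 0.27; edgeR adjusted p = 0.000972). Each had 3 UMIs in the spleen of run 2, and 68 of the 209 Stfa1 UMIs in bone marrow of run 1 came from 1 cell. Without the highest cell in each library the differences of Stfa1 and Gm5483 were -1.77 and -1.31, and both were called. In cells matched on their Camp and Ngp share Gm5483 was not called (-1.08; edgeR adjusted p = 0.102), and it stood at -0.31 when they were matched on UMIs too. In mature cells BC100530 was lower in spleen (-2.23), and Stfa1 and Gm5483 were lower as well (-0.98 and -0.76). For Gm5483 this came from run 2, at 1588 and 958 CPM (bone marrow, then spleen). Run 1 had 1559 and 1677 CPM.

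Globin transcripts were lower in immature cells of spleen. Hbb-bs, an adult beta-globin gene, stood at 264 and 33.6 CPM in run 1 and at 103 and 36.8 CPM in run 2 (bone marrow, then spleen). The difference was -2.72 ± 0.26 (edgeR adjusted p = 1.33e-24). All 4 globin genes tested were called lower, where 0.118% of all genes were, and Hbb-bt, Hba-a1 and Hba-a2 differed by -2.33, -1.85 and -1.75. Hbb-bt had 0 UMIs in the spleen of run 2, so its fitted value is no bound. Erythroid markers moved with this result in the cells outside the neutrophil rule: the 8 listed markers took 17.0% of UMIs there for bone marrow against 1.34% for spleen in run 1, and 2.63% against 0.0228% in run 2. In immature cells they took 0.0445% against 0.00789% in run 1 and 0.0206% against 0.00735% in run 2. Nearly all of these UMIs in immature cells came from the 4 globin genes, so these shares restate the result. The part of the cells outside the neutrophil rule in it was not tested. Apoe, a lipid carrier of macrophages, stood at 37.5 and 8.82 CPM in run 1 and 25.3 and 36.8 CPM in run 2. It was called lower (-1.48 ± 0.41; edgeR adjusted p = 0.0435), with 33 of the 90 UMIs in bone marrow of run 1 in 1 cell, and the log2 ratio was -1.86 in run 1 and 0.35 in run 2. It was not called without the highest cell of each library (-1.15; edgeR adjusted p = 0.999). In mature cells Apoe was called higher in spleen (1.07), and the interaction was called (-2.91 ± 0.41).

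Several groups of genes had no member called in immature cells, as the 0.371% called over all genes gives for lists of this size. None of 17 immediate early and AP-1 genes passed (median 0.08), none of 13 heat shock and chaperone genes (-0.06), none of 16 NF-kB feedback and cytokine genes (0.21) and none of 18 growth factor and cytokine receptor genes (-0.03). The same held for 22 genes of retention, egress and adhesion (0.08), 18 transcription factors of granulopoiesis (0.18), 18 genes of DNA replication and tubulin outside the rule (0.03) and 17 genes of heme, iron and oxidant handling (-0.17). Klf2, a zinc finger factor of leukocyte trafficking, stood at 243, 287, 268 and 309 CPM (0.24, -0.10 to 0.59). Cebpe, which drives secondary granule genes, stood at 688, 596, 544 and 426 CPM (-0.25, -0.59 to 0.09). Ly6g itself stood at 1436, 1619, 1154 and 1139 CPM (0.08, -0.27 to 0.42). These intervals lie within 2-fold. In mature cells 10 of 19 immediate early and AP-1 genes were higher in spleen, against 9.86% of all genes, and the interaction was called more negative in immature cells for 7 of 20, against 2.6%, Klf2 among them (-1.13 ± 0.21). Markers of eosinophils, basophils and mast cells had 1 gene tested and 0 called, of platelets 0 tested, and of stromal and endothelial cells 0 tested.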

How the data were processed

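Single-cell 3' RNA-seq libraries of sorted CD11b+ Ly6G+ cells were compared. Per the methods of the study, the authors made UMI counts with Cell Ranger (version 1.2.0 for run 1, 2.1.0 for run 2) on mm10, and they deposited raw counts per gene and cell, before their own cell filters. The tables of run 1 list genes with 11 UMIs or more in a table, so the 7174 genes listed in all 4 tables were used, which held 93.8 to 99.9% of UMIs. In run 1, 1483 genes were listed for bone marrow alone and 172 for spleen alone, so this step left out more genes of bone marrow. Cells were chosen by the rule above, on percent of UMIs computed here from the counts. The members and gene lists were chosen with earlier results of these data known.

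UMIs were summed per library and stage. Sums were tested with edgeR 4.0.16 in R 4.3.3 (TMM factors, filterByExpr, quasi-likelihood test, FDR of 0.05) with the run as a block, since both tissues of each run were taken from 1 set of mice. Deviations of both libraries of a run from their tissue means correlated at r = 0.437 over 5933 genes. Genes of the rule were fitted with all others and left out of the counts of calls. The interaction of tissue and stage was tested over 8 sums with the library as a block. Both sums of a library share its capture. Fold changes are log2 of spleen over bone marrow, and CPM is per 1e6 UMIs of the summed cells in the genes listed in all 4 tables. Promoters were read from RefSeq (GRCm38.p6), and positions are from GENCODE M21 (GRCm38). Alternatives used DESeq2 1.42.0, and Python 3.11.15 with numpy 2.4.6, scipy 1.17.1 and pandas 2.3.3 handled the cells.

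Named genes were the called genes with the same sign in both runs and at least 50 CPM in 1 tissue (at most 12 per direction, other cell types' markers apart), called list members, the 4 highest members of each list, Camp, Ngp, Ltf and Chil3, and 6 interaction genes per direction. Rtp4, Ly6e, Oas3, Ifi204, Gbp7, Samd9l, Tap1, Tap2 and Ldhc were chosen after their values were seen. On simulated counts for 7174 genes the comparison of tissues recovered 71% of genes changed 2-fold and 100% of those changed 4-fold, with 13 calls among 5665 unchanged genes, and the interaction recovered 20% and 86%, with 6 calls among 5966. In these simulations the changed genes had a mean over 20 CPM, runs did not differ, and 1 spread was shared by all genes. Recovery of genes at lower levels was not simulated. No doublet caller was run, and cells with 3 or more lymphoid UMIs were left out by the rule. Libraries of inflamed mice were not used here.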

Additional observations from a re-analysis of the deposited data

Results flagged for a closer look

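The spleen minus bone marrow difference was more positive in immature than in mature neutrophils for 222 genes and more negative for 165, by the test of the difference itself (edgeR, interaction of tissue and stage). Among genes named by the rule, the highest coefficients (log2, immature minus mature) were 5.01 for Fcnb, a ficolin of early granulocytes, 4.26 for BC100530, 3.72 for the receptor gene Acvrl1, 3.59 for 4930438A08Rik, 3.36 for the receptor gene Gpr27 and 3.19 for the sulfurtransferase gene Tst. Fcnb had 0 UMIs in mature cells of both spleens, so its coefficient is no bound, and it passed the filter on low counts through its immature cells alone. Acvrl1 stood at 64.2 and 75.01 CPM in immature cells of bone marrow and spleen of run 1 and at 67.9 and 95.6 CPM in run 2, against 10.3, 1.59, 22.02 and 2.56 CPM in mature cells. Coefficients of Acvrl1, 4930438A08Rik, Gpr27 and Tst had an SE of 0.77, 0.93, 0.58 and 0.63. Their levels in mature spleen cells were at most 9.57 CPM and rest on few UMIs. The difference of BC100530 in immature cells rests on a few cells, as given in the report.

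In the other direction the coefficients, among genes named by the rule, were -6.70 for Sirpb1a, -3.45 for the apoptosis gene Pmaip1, -3.30 for Tspan2, -2.88 for the G protein subunit gene Gngt2, -2.86 for the purinergic receptor gene P2ry13 and -2.69 for the inflammasome gene Nlrp3. That rule leaves out markers of other cell types, Apoe (-2.91) among them. Sirpb1a had 0 UMIs in immature cells of both spleens, and Pmaip1 and Tspan2 had 0 in those of run 2, so these coefficients are no bounds. All 3 genes were too low to be tested in immature cells and passed the filter through mature cells alone, so their place here says little about immature cells. Gngt2 stood at 48.6 and 327 CPM in mature cells of bone marrow and spleen of run 1 and at 37.2 and 237 CPM in run 2, against 21.7, 9.93, 11.0 and 22.1 CPM in immature cells.

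Immature cells were also found in the blood libraries, whose data were not otherwise used. They made up 9.58% of neutrophils in run 1 (125 of 1305) and 0.658% in run 2 (24 of 3647), a value with no test.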

How the results depend on the processing

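Of 15 genes higher and 7 lower in spleen, the counts moved by more than 1.5 times under some settings. They were 0 and 0 with no replicate block, 0 and 0 in each fit without 1 library (no block, range 0 to 0), 0 and 0 in cells matched on Camp and Ngp share and UMIs, 1 and 1 in cells thinned to 500 UMIs, and 1 and 1 with DESeq2. The lower count was 3 with a Camp and Ngp minimum of 5% and 12 with unlisted genes taken as 0, a setting chosen after seeing the data, as were the sums without the highest cell and the mature class under 0.5%. The cause was not tested. Direction turned in fits without 1 library, which also had no block for the run, so that both changes enter. Their differences ran from -0.64 to 2.62 for Gm26917, -0.27 to 2.39 for Rps27rt, -1.10 to 2.70 for Rpl38 and -1.60 to 3.73 for Cd74 (each lowest without the spleen of run 2), from -1.38 to 3.57 for Gm7676 (lowest without the spleen of run 1) and from -1.75 to 0.068 for Apoe (highest without the spleen of run 1), and for Rpl38 in thinned cells (-0.042). For the interaction, 222 and 165 became 76 and 26 with DESeq2, the count of more negative genes was 100 with no replicate block and 97 with mature cells under 0.5%, and leaving out 1 library gave 68 to 183 and 24 to 123. The interferon list's median of 0.74 ranged from 0.28 in thinned cells (9 genes, 6 of them positive) to 0.88, and from 0.56 to 1.17 without 1 library. The mean difference in share of -20.6 points ranged from -25.2 to -13.9. The spleen of run 2 held 46 immature cells, so its immature values rest on few UMIs.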
